A study of Homo sapiens with 16 samples.

Results

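The genes that run apoptosis and necroptosis were followed through 16 RNA-seq libraries of human cancer cells that had been given toxic or nontoxic small interfering RNAs. The set holds 36 of the 26485 genes in the deposited count table and was chosen by gene symbol: BCL2 family members, caspases, mitochondrial death factors, inhibitor of apoptosis (IAP) proteins, the TRAIL death receptor pathway and the necroptosis kinases. PC3 cells come from a prostate cancer and HeyA8 cells from an ovarian cancer, and both are established lines for which the labels name no engineered change. Each line was either mock treated or transfected with lipid and 1 of 3 siRNAs at a labelled dose of 1 nM: siNT1, the nontoxic control, siGGGGGC, named after the 6 bases of its seed and called siMxy in the sample titles, and siCAG, whose sequence was not given in the sources used here. Total RNA was taken at 24 h and at 48 h, with 1 library for each line, treatment and time, so that a group consists of 2 libraries that also differ in time. Libraries held 27937092 to 31790209 counted reads. The study's methods describe wells of the same transfection, some lysed at 24 h and the rest at 48 h. The p-values below therefore measure the spread that is left between these libraries after a term for time.

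Apoptosis is decided at the mitochondrion by the balance between BCL2 proteins that protect the outer membrane and BH3-only proteins that oppose them, with BAK1 and its relatives as the pore formers. Once the pores open, cytochrome c joins APAF1 and caspase-9 in the apoptosome, while DIABLO and HTRA2 release caspases from the IAP proteins. Death receptors reach the same caspases from the cell surface through FADD and caspase-8, a step that CFLAR restrains, and where caspase-8 is blocked RIPK1 and RIPK3 can instead activate MLKL, the protein that breaks the plasma membrane in necroptosis. In cancer cells these genes set how close a cell stands to death, and all of them act largely as proteins, whereas the values here are RNA levels. In bulk RNA, fewer cells of a kind and less RNA per cell cannot be told apart.

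The lines carried the genes by which they are known. HOXB13, a prostate transcription factor, stood at 322 and 525 CPM, the read count scaled to library size, in the PC3 mock libraries of 24 and 48 h and at 1.21 and 0.934 CPM in those of HeyA8. PAX8, a marker of ovarian carcinoma, stood at 132 and 188 CPM in HeyA8 mock cells and at 4.57 and 3.17 CPM in PC3. The prostate secretory genes KLK2 and KLK3, which define luminal prostate cells, had no reads in PC3 mock cells. MUC16 was likewise near 0 in HeyA8. Of the leukocyte markers, PTPRC did not exceed 0.418 CPM in a mock library of either line, and CD3E had no reads in them.

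A pair of libraries stood apart from the others. In HeyA8 cells given siCAG, the change between 24 and 48 h had an SD of 0.948 across 13122 genes on the log2 scale, against 0.269 to 0.518 in the other 7 groups, and 22% of genes differed by over 2-fold. Of 33 genes of the set with enough reads for this measure, 6 differed by over 2-fold in that group. The calls that rest on these libraries are therefore given with each of them left out as well.

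The seed of siGGGGGC pairs with the 6 bases GCCCCC, and the study asked which genes lose RNA through such matches in the 3′ UTR. Among the 36 genes, 11 had GCCCCC in the longest annotated 3′ UTR of GENCODE release 44 (hg38), 4 of them with 2 matches, for 15 matches in all. The share among the members tested in PC3 was 31.4%, beside 32.5% of the 12690 tested genes that matched a GENCODE protein-coding transcript. The windows of 30 bases below are those of members on which the results turn, each written 5′ to 3′ on the strand of the gene with the match in capitals. They are shown because BID was called in PC3, and APAF1 and BOK were among the members with the smallest p in 1 of the lines. The genome positions are chr22:17734723-17734752 (minus strand) for BID, chr12:98733114-98733143 (plus) for APAF1, and chr2:241573198-241573227 and chr2:241573795-241573824 (plus) for BOK.
BID: ccccgggagttaGCCCCCtggtaatagctg
APAF1: tggatttagcagGCCCCCccaccttttttt
BOK, first match: gctctcacctgaGCCCCCggtgaaggggcc
BOK, second match: agcccctcaggtGCCCCCacacacagcctt
The other members with a match were BAD, BMF, HRK, BCL2L13, CASP2, DIABLO, CFLAR and RIPK1. The match of HRK lies beyond the end of the gene as the count table defines it.

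In PC3 cells given siGGGGGC, 3 of the 35 members tested rose against siNT1 and 0 fell, and each of the 3 belongs to the BCL2 family. Among all 15136 genes tested the share called was 9.67%, so 3 of 35 lies near the background of the comparison. The 3 were a pair of BH3-only genes, BCL2L11 and BID, and the anti-apoptotic MCL1, whose protein holds BCL2L11 and BAK1 in check. Values are CPM with library sizes scaled within each line, and calls are from edgeR's quasi-likelihood test at a Benjamini-Hochberg adjusted p under 0.05 over all genes.

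BCL2L11 (chr2:111120914-111168445), which encodes BIM, stood at 17.1 CPM at 24 h and 21.9 CPM at 48 h after siNT1, and at 28.5 and 40 CPM after siGGGGGC. The mock libraries were at 18.3 and 18 CPM and the siCAG libraries at 18.1 and 21 CPM, so that both siGGGGGC libraries lay above the other 6 PC3 libraries. The log2 fold change was 0.83 ± 0.19 (SE, n = 2 libraries a group) with an adjusted p of 0.0385. BID (chr22:17734140-17774665), the link from death receptors to mitochondria, went from 20.1 and 22.4 CPM after siNT1 to 31.3 and 34.3 CPM. Its log2 fold change was 0.64 ± 0.16 with an adjusted p of 0.0467, and it too was higher in both siGGGGGC libraries than in any other PC3 library. Its 3′ UTR holds the GCCCCC match shown above. MCL1 (chr1:150574551-150579738) was at 341 CPM at both times after siNT1, at 382 and 403 CPM in mock cells and at 541 and 509 CPM after siGGGGGC. That gave a log2 fold change of 0.64 ± 0.14 and an adjusted p of 0.0323, the smallest of the set in this comparison. Against mock in place of siNT1 MCL1 was not called (adjusted p = 0.0547), while BCL2L11, BID and TNFSF10 were, beside 21.1% of all genes.

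A further 6 members had an unadjusted p under 0.05 and missed the adjusted threshold. With the 3 called this gives 9 of 35 members at that unadjusted p, beside 4864 of 15136 genes. DESeq2 called 4 members, the 3 above and APAF1, beside 18.9% of all genes. APAF1, the apoptosome scaffold, was at 39.1 and 53.1 CPM after siNT1 and at 29.5 and 26.6 CPM after siGGGGGC (log2 fold change -0.69 ± 0.20, adjusted p = 0.0677). TNFSF10, which encodes the ligand TRAIL, was rare at 16 and 13 counts after siNT1 and 5 and 6 counts after siGGGGGC. BAK1 had 55.3 and 72.4 CPM after siNT1 and 89.7 and 84.1 CPM after siGGGGGC, with an adjusted p of 0.101. The other 3 were BIRC6, CASP6 and AIFM1. Over the 35 members the log2 fold changes ran from -1.84 (HRK, with 3 and 14 reads after siNT1 and 4 and 0 after siGGGGGC) to 0.83 with a median of -0.16, and over all tested genes the median was 0.00289.

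MLKL, the executor of necroptosis, kept its level at 24 h and was low at 48 h. In PC3 it was at 24.7 CPM after siNT1 and 25.2 CPM after siGGGGGC at 24 h, but at 19.3 and 9.16 CPM at 48 h. In HeyA8 the same values were 37.9 and 33.4 CPM at 24 h and 27.1 and 13.9 CPM at 48 h. With a single library at each time this pattern has no test, MLKL was picked out after its values were seen, and the fold change over both times was not called in either line (-0.43 ± 0.32 with an adjusted p of 0.388 in PC3 and -0.53 ± 0.32 with an adjusted p of 0.66 in HeyA8). Without the siGGGGGC library of 24 h the log2 fold change of MLKL in PC3 was -1.15. That fit keeps only the low library of 48 h, so it restates the pattern and is no test of it. RIPK3, the kinase upstream of it, had 0 reads in each of the 16 libraries, which allows up to 0.107 CPM in the shallowest one by the limit of 3 counts, a limit that covers counting error only.

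**Figure D1:**
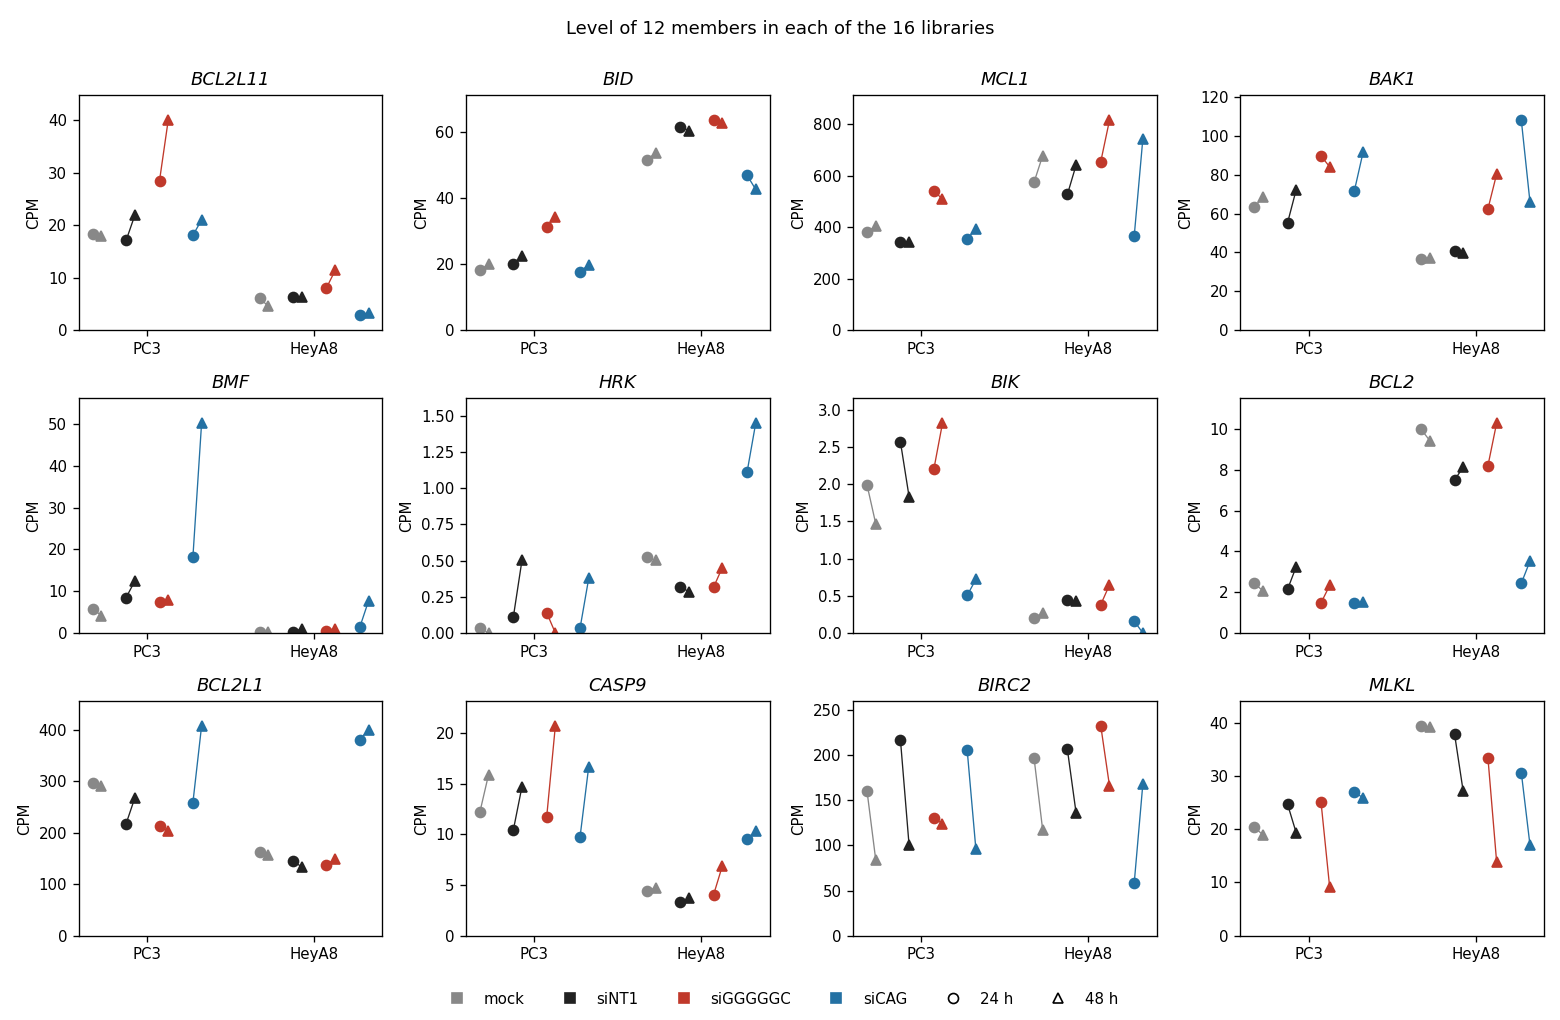
CPM of 12 members in each of the 16 libraries, with PC3 on the left and HeyA8 on the right of every panel, colours for the treatment, circles for 24 h, triangles for 48 h and a line joining the libraries of a group. BCL2L11 is highest in PC3 cells given siGGGGGC at 28.5 and 40 CPM, and BCL2L1 in HeyA8 cells given siCAG lies far above the other HeyA8 libraries at 381 and 401 CPM.

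The count of 3 depended on the libraries fitted. It was 1 of 35 (MCL1) without the term for time, where the number of all genes called went from 1463 to 625, and 1 of 35 (MCL1) without the siCAG libraries, beside 8.04% of all genes. It was 0 with only the 4 libraries compared, and the alternatives that left out no single library called 438 to 3200 of all genes. A fit without 1 library leaves a group of 1, so the counts of those fits are not given here. The calls of BCL2L11, BID and MCL1 were each lost in at least 1 of those fits, while their direction was the same in all of them. Across all alternatives log2 fold changes ran from 0.604 to 0.969 for BCL2L11, 0.59 to 0.802 for BID and 0.436 to 0.656 for MCL1.

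Members with a GCCCCC match had a median log2 fold change of -0.22 in PC3, with 8 of 11 negative, and members without one had a median of -0.11, with 13 of 24 negative. Over all genes the corresponding medians were -0.09 and 0.04, and 2307 of the 4130 genes with a match were negative. In HeyA8 the medians of the members were 0.06 with a match and 0.11 without one, against -0.10 and 0.05 over all genes, and 3 of 11 members with a match and 9 of 23 without one were negative, beside 2244 of the 3805 genes with a match. These are descriptions of fitted values, and no test was made on them.

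Among 86 other genes of the same pathways, listed by function, 77 were tested in PC3, and siGGGGGC raised 2 and lowered 4 by edgeR, beside the 9.67% of all genes called. DESeq2 called 4 higher and 9 lower, beside 18.9% of all genes. FAS, a death receptor, was at 7.89 and 5.83 CPM after siNT1 and at 2.69 and 1.16 CPM after siGGGGGC (log2 fold change -1.90 ± 0.27, adjusted p = 0.0131). ITPK1, a kinase that makes inositol phosphates needed by MLKL, went from 60.8 and 63.4 CPM to 21.9 and 13.5 CPM (-1.81 ± 0.24, adjusted p = 0.0125). TNFSF12, which encodes the ligand TWEAK, fell as well (-1.35 ± 0.32, adjusted p = 0.042), and so did the stress kinase gene MAPKAPK2. BNIP3, a mitochondrial BH3-like protein that marks mitochondria for removal, rose from 83.4 and 145 CPM to 154 and 535 CPM (1.47 ± 0.31, adjusted p = 0.0331), and AIFM2 rose with it. On the log2 scale the difference in each of FAS, ITPK1, TNFSF12 and BNIP3 was wider at 48 h than at 24 h, which has no test with 1 library at each time. FAS, ITPK1, TNFSF12 and BNIP3 were not called without the siNT1 library of 24 h or without that of 48 h. Without the term for time FAS (adjusted p = 0.0674), BNIP3 (adjusted p = 0.107) and TNFSF12 (adjusted p = 0.0512) were not called. TNFSF12 (-0.91, adjusted p = 0.0746) and BNIP3 (0.76, adjusted p = 0.0722) were not called without the siGGGGGC library of 48 h either. Against mock the log2 fold change was 0.89 for BNIP3 (adjusted p = 0.0754) and -1.09 for FAS (adjusted p = 0.028).

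In HeyA8 cells given siGGGGGC, 0 of the 34 members tested passed edgeR's threshold, and 0% of the 13872 genes did. At an unadjusted p under 0.05 there were 2 members and 1352 genes, and DESeq2 called 0 members and 318 genes. BAK1, a pore former, had the smallest p: 40.8 and 39.8 CPM after siNT1 against 62.4 and 80.3 CPM after siGGGGGC, a log2 fold change of 0.84 ± 0.29 with an adjusted p of 0.456. BOK, also a pore former, was at 82.6 and 82.1 CPM after siNT1 and at 60.6 and 43.8 CPM after siGGGGGC (-0.67 ± 0.26, adjusted p = 0.492). CASP9 came next at 0.63 ± 0.30 (adjusted p = 0.545). BCL2L11 had a value of 0.62 ± 0.31 in this line, and the mock and siNT1 libraries lay between 4.54 and 6.35 CPM against 8.06 and 11.4 CPM after siGGGGGC. The other genes called in PC3 had log2 fold changes of 0.06 ± 0.20 (BID, adjusted p = 0.961) and 0.34 ± 0.25 (MCL1, adjusted p = 0.716) here.

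The spread in HeyA8 was estimated over 8 libraries that include the pair of siCAG libraries set apart above. Its biological coefficient of variation was 28.2%, against 18% in PC3. Without the siCAG libraries 1 member (BAK1, adjusted p = 0.0335) and 477 genes were called, and with only the 4 libraries compared 2 members (BAK1 and BOK) and 1180 genes. Of the 75 other pathway genes tested, 0 passed by edgeR and 2 by DESeq2, 11 had an unadjusted p under 0.05, and the smallest p-values belonged to TRADD, an adaptor of TNF receptors (-1.20 ± 0.26, adjusted p = 0.241), and to ITPK1 (-1.77 ± 0.41, adjusted p = 0.267), which was at 46.2 and 47.4 CPM after siNT1 and at 20.9 and 8.59 CPM after siGGGGGC.

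The difference between the lines in the response to siGGGGGC was tested directly by an interaction term over all 16 libraries. It called 0 of 35 members and 0% of 15887 genes, with 3 members and 1054 genes at an unadjusted p under 0.05 and 0 members and 19 genes by DESeq2. The smallest p among the members belonged to BIRC6, an IAP family ubiquitin ligase (HeyA8 minus PC3 0.88 ± 0.33 on the log2 scale, adjusted p = 0.726), and BID (-0.57 ± 0.24, adjusted p = 0.746). TNFSF10 followed, but with 1 count over both siNT1 libraries of HeyA8 it gives no fold. Among the other pathway genes FAS had the smallest p (1.78 ± 0.46, adjusted p = 0.667), with 83.9 and 60.5 CPM after siNT1 and 72.1 and 58.7 CPM after siGGGGGC in HeyA8, and PMAIP1 the next (1.5 ± 0.57, adjusted p = 0.726). Of 79 tested, 0 passed by either tool and 5 had an unadjusted p under 0.05.

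**Figure D2:**
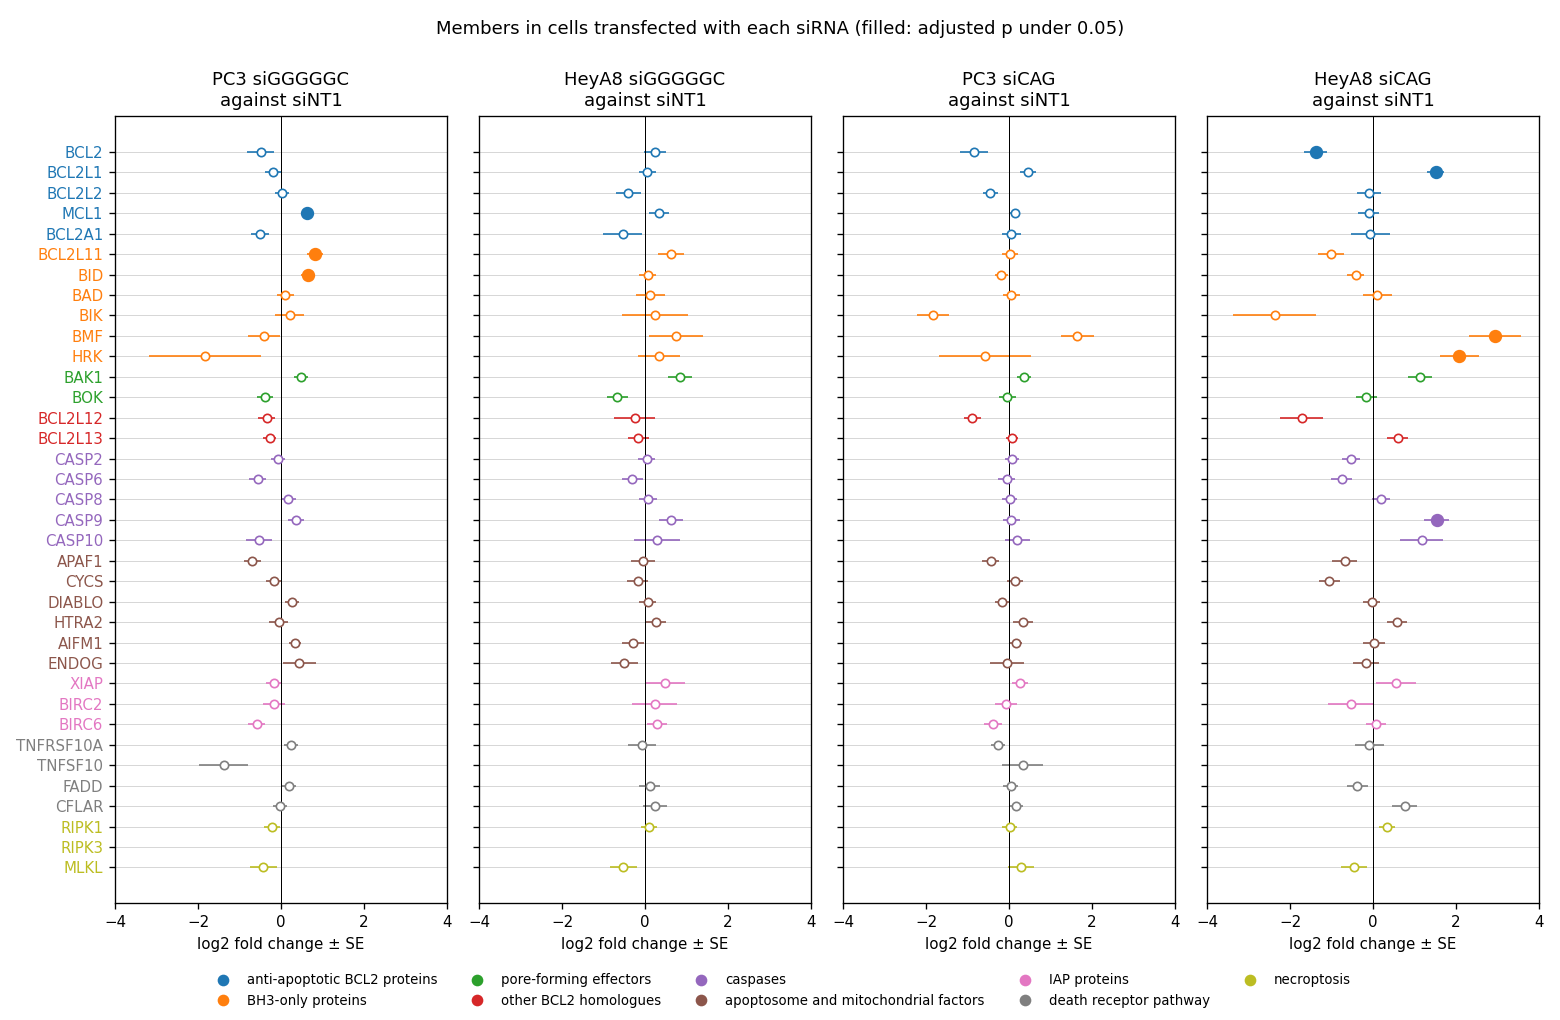
Log2 fold change against siNT1 (horizontal axis, with its SE) of every tested member in PC3 and HeyA8 cells given siGGGGGC or siCAG, ordered and coloured by role. Filled points passed an adjusted p of 0.05: MCL1, BCL2L11 and BID in PC3 after siGGGGGC, and BCL2, BCL2L1, BMF, HRK and CASP9 in HeyA8 after siCAG.

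In PC3 cells given siCAG, 0 of 35 members passed edgeR's threshold, beside 1.2% of all genes. At an unadjusted p under 0.05 there were 6 members and 2037 of 15136 genes. DESeq2 called 3 members, beside 3.78% of all genes. Those 3 were also the members with the smallest p by edgeR: the BH3-only genes BIK and BMF, and BCL2L12. BIK (chr22:43110748-43129712) was at 2.57 and 1.83 CPM after siNT1 and at 0.505 and 0.721 CPM after siCAG, which is 72 and 51 reads against 15 and 21. The log2 fold change was -1.83 ± 0.39 with an adjusted p of 0.0926, and both siCAG libraries lay below the other 6 PC3 libraries. BMF was at 8.47 and 12.4 CPM after siNT1 and at 18.2 and 50.2 CPM after siCAG (1.65 ± 0.39, adjusted p = 0.125). BCL2L12 was at 58.1 and 55.1 CPM after siNT1 and at 35.1 and 26.5 CPM after siCAG (-0.89 ± 0.20, adjusted p = 0.113). With only the 4 libraries compared 5 members were called, namely these 3 with BCL2L1 and BCL2L2, beside 16% of all genes. Without the siCAG library of 24 h BMF alone was called, as it was against mock in place of siNT1.

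BIK was also the one member with 4 or more CTG triplets in a row, CTG being the reverse complement of the letters in the name of siCAG. The run of 5 lies in the coding sequence and in frame, where CTG encodes leucine. The window of 29 bases around it, chr22:43129233-43129261 (plus strand), is shown with the run in capitals.
BIK: gctggcgCTGCTGCTGCTGCTGgcgctgc
Of the 12690 genes tested in PC3 that matched a GENCODE protein-coding transcript, 2.9%, which is 364 genes, had a run of at least 4. The coding sequence and 3′ UTR were searched. The median log2 fold change of those 364 genes after siCAG was -0.50, and 279 of them were negative, while the median of the genes without such a run was -0.01 and 7672 of all 15136 genes tested were negative. No test was made on these values. In HeyA8 the medians were -0.58 and -0.03, from the fit over both siCAG libraries, and were not computed without either of them. BIK was rare in HeyA8, with 14 and 12 reads after siNT1 and 5 and 0 reads after siCAG.

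In HeyA8 cells given siCAG, 4 of 34 members rose and 1 fell, beside 7.81% of all genes called. BH3-only genes BMF and HRK, the initiator caspase gene CASP9 and the anti-apoptotic BCL2L1 rose, and the anti-apoptotic BCL2 fell. BCL2L1 (chr20:31664458-31722853), which encodes BCL-XL, was at 145 and 134 CPM after siNT1 and at 381 and 401 CPM after siCAG. The mock and siGGGGGC libraries of HeyA8 lay between 137 and 162 CPM, and the log2 fold change was 1.51 ± 0.21 with an adjusted p of 0.0137. CASP9 (chr1:15491401-15524790) went from 3.31 and 3.68 CPM to 9.55 and 10.3 CPM (1.53 ± 0.30, adjusted p = 0.034), and both siCAG libraries were above the other 6 of the line.

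BMF (chr15:40087891-40108884) had 5 and 28 reads after siNT1 and 45 and 239 reads after siCAG, which is 0.159 and 1 CPM against 1.43 and 7.68 CPM. Its log2 fold change of 2.95 ± 0.63 (adjusted p = 0.041) was the largest of the set, and the 24 h siCAG library was only slightly above the 48 h libraries of siNT1 and siGGGGGC, the latter at 1.03 CPM. HRK had 10 and 8 reads after siNT1 and 35 and 45 after siCAG (2.08 ± 0.47, adjusted p = 0.0463), with 10 to 16 reads in the other HeyA8 libraries. BCL2 (chr18:63123346-63319380) fell from 7.51 and 8.14 CPM to 2.44 and 3.53 CPM (-1.38 ± 0.28, adjusted p = 0.0369), below the other 6 libraries of the line.

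A further 8 members had an unadjusted p under 0.05 by edgeR, of which DESeq2 called CYCS, BAK1, BCL2L11 and BCL2L12. In all, 13 of 34 members had such a p by edgeR, beside 4094 of 13872 genes, and DESeq2 called 19.2% of all genes. CYCS, which encodes cytochrome c, was at 376 and 384 CPM after siNT1 and at 148 and 211 CPM after siCAG (-1.06 ± 0.25, adjusted p = 0.0523). BAK1 was at 108 and 65.8 CPM after siCAG against 40.8 and 39.8 CPM after siNT1 (1.13 ± 0.30, adjusted p = 0.0646). BCL2L11 was at 2.82 and 3.31 CPM after siCAG, the lowest values of the 8 HeyA8 libraries, against 6.3 and 6.35 CPM after siNT1 (-1.02 ± 0.31, adjusted p = 0.0881). The remaining 5 were BCL2L12, CASP6, CFLAR, CASP2 and BCL2L13, and the median over the 34 members was -0.07 beside -0.01 over all genes.

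Several members had differences of opposite sign at the 2 times, in both orders, which the fit over both times does not show. XIAP, which blocks caspases directly, was at 35 CPM after siCAG and 52.6 CPM after siNT1 at 24 h, but at 113 and 43.9 CPM at 48 h. BIRC2, a ubiquitin ligase of the IAP family, was at 57.8 and 206 CPM at 24 h and at 168 and 136 CPM at 48 h in the same order. MCL1 was at 364 and 527 CPM at 24 h and at 744 and 641 CPM at 48 h. TNFRSF10A went the other way, with 36.8 and 27.1 CPM at 24 h and 17.3 and 29.3 CPM at 48 h. So did the anti-apoptotic BCL2L2, with 62.1 and 51.8 CPM at 24 h and 44.4 and 62.5 CPM at 48 h. BAD, BOK and AIFM1 were likewise higher after siCAG at 24 h and lower at 48 h. BCL2L12 was low at both times, with 23.6 and 47.3 CPM at 24 h and 5.88 and 42.2 CPM at 48 h. These genes were picked out after their values were seen, and with 1 library at each time there is no test of the change with time.

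**Figure D3:**
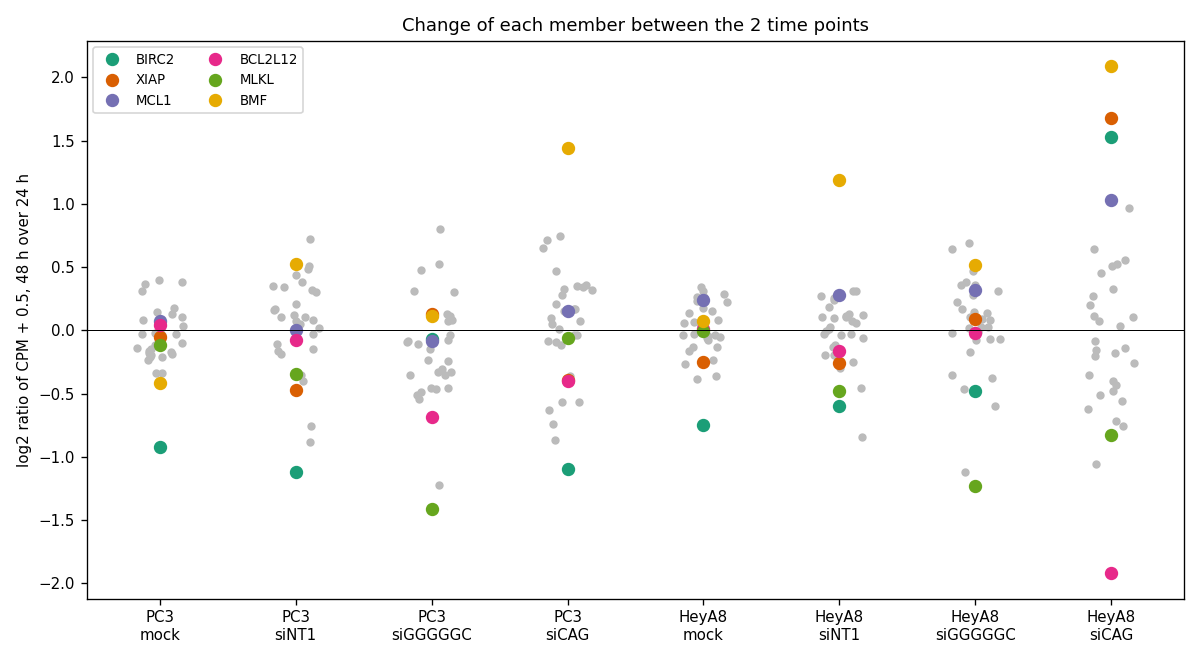
Log2 ratio of CPM + 0.5 at 48 h over 24 h (vertical axis) for 35 members in the 8 groups, with 6 members coloured and the others in grey. BIRC2 lies below 0 in the 4 control groups and at 1.53 in HeyA8 cells given siCAG, where BMF reaches 2.09 and BCL2L12 -1.92.

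Leaving out the siCAG libraries one at a time changed which members were called. Without the siCAG library of 24 h 14 members were called beside 31.5% of all genes, among them BCL2, BCL2L1, BMF, HRK and CASP9, and without that of 48 h 12 members were called beside 32.9%, among them BCL2, BCL2L1 and CASP9 but not BMF (adjusted p = 0.065) or HRK (adjusted p = 0.0549). The count was 1 (BMF) beside 4.31% of all genes with only the 4 libraries compared, and 1 (BCL2L1) beside 1.94% without the siGGGGGC libraries. Without the siNT1 library of 24 h or that of 48 h the siNT1 group is 1 library, and the calls did not hold in either fit. Without the term for time the count was 6 beside 8.56% of all genes, with BMF lost and BAK1 and CYCS gained. Against mock it was 5 beside 8.97%, with CASP9 (adjusted p = 0.0586) and HRK (adjusted p = 0.106) lost and BAK1 and CYCS gained.

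Of the 75 other pathway genes tested in HeyA8, siCAG raised 3 and lowered 0 by edgeR, beside the 7.81% of all genes called. DESeq2 called 7 higher and 1 lower, beside 19.2% of all genes, and 13 had an unadjusted p under 0.05 by edgeR. BBC3, which encodes the p53-induced BH3-only protein PUMA, rose from 7.74 and 9.53 CPM after siNT1 to 30.1 and 25.3 CPM (1.73 ± 0.29, adjusted p = 0.0231). GSN, which encodes gelsolin, an actin-severing caspase substrate, rose by 1.51 ± 0.31 (adjusted p = 0.0389), and CASP4, an inflammatory caspase, by 1.31 ± 0.25 (adjusted p = 0.0319). Without the siCAG library of 24 h the log2 fold changes of BBC3, GSN and CASP4 were 1.36, 1.77 and 1.57, without that of 48 h they were 2.04, 1.22 and 1.00, and each was called in both fits. The 3 genes were not called without the siNT1 library of 24 h or without that of 48 h. BIRC5, which encodes survivin, a mitotic member of the IAP family, was among the genes with the smallest p in PC3 after siCAG (-0.76 ± 0.23, adjusted p = 0.215), together with the TNF receptor gene TNFRSF1B (-1.24 ± 0.35, adjusted p = 0.187), in a list of 77 of which 0 passed there by edgeR or DESeq2 and 5 had an unadjusted p under 0.05. In HeyA8, BIRC5 had 5749 and 4870 reads after siNT1, 2778 reads after siCAG at 24 h and 26 reads after siCAG at 48 h. That last library is far below the other 7 of the line, which hold 88.1 to 222 CPM, and the fold change over both times was not called (-2.48 ± 1.52, adjusted p = 0.319). BIRC5 was picked out in HeyA8 after its values were seen.

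The interaction term for siCAG called 0 of 35 members by edgeR, beside 0.636% of all genes. At an unadjusted p under 0.05 there were 6 members and 2327 of 15887 genes by edgeR. DESeq2 called 3 members, and the alternatives that left out no single library, DESeq2 among them, called 51 to 671 of all genes. The 3 with the smallest p were CASP9 (HeyA8 minus PC3 1.59 ± 0.35, adjusted p = 0.0804), BCL2L1 (1.17 ± 0.30, adjusted p = 0.115) and CYCS (-1.09 ± 0.31, adjusted p = 0.146), to be read against a median over all genes of 0.125 in this contrast. In PC3, BCL2L1 was at 218 and 268 CPM after siNT1 and at 259 and 408 CPM after siCAG, and CASP9 at 10.4 and 14.7 CPM and at 9.76 and 16.7 CPM. Without the HeyA8 siCAG library of 24 h 5 members were called, beside 9.24% of all genes, and without that of 48 h 6, beside 6.36%, CASP9 and BCL2L1 in both. Among the other pathway genes GSN (1.68 ± 0.35, adjusted p = 0.0637) and BBC3 (1.85 ± 0.48, adjusted p = 0.119) had the smallest p, with 0 of 79 called by edgeR, 8 at an unadjusted p under 0.05 and 3 called by DESeq2. The siCAG, siGGGGGC and siNT1 against mock comparisons of a line share their siNT1 libraries.

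Transfection with the nontoxic siRNA was compared with mock treatment as the background of the experiment. In PC3, 0 of 35 members passed by edgeR, beside 0.231% of all genes, and DESeq2 called 0. At an unadjusted p under 0.05 there were 3 members and 1364 of 15136 genes. BCL2A1, an anti-apoptotic NF-kB target, was at 3.38 and 2.57 CPM in mock cells and at 5.68 and 4.33 CPM after siNT1 (0.75 ± 0.23, adjusted p = 0.341). BCL2L2 (0.45 ± 0.17, adjusted p = 0.479) and BMF (1.01 ± 0.40, adjusted p = 0.512) came next. In HeyA8, 0 of 34 members passed, beside 0% of all genes, 0 members had an unadjusted p under 0.05 against 177 genes, and DESeq2 called 0 members and 1 gene. The smallest p belonged to CASP10 (-1.01 ± 0.53, 17 and 16 reads in mock cells against 8 and 8 after siNT1), BCL2A1 (-0.74 ± 0.46) and HRK (-0.76 ± 0.49), each with an adjusted p of 1. With only the 4 libraries compared 7 members were called in HeyA8, among them BCL2A1 and XIAP, beside 11.8% of all genes. Among the other pathway genes with the smallest p were the epidermal caspase gene CASP14 in PC3 (4 and 0 reads in mock cells against 34 and 62, adjusted p = 0.144, with no fold given because mock cells were near 0) and BBC3 in HeyA8 (0.58 ± 0.29, adjusted p = 1). By edgeR 0 of 77 and 0 of 75 passed, 11 and 1 had an unadjusted p under 0.05, and DESeq2 called 3 and 0. In PC3 the alternatives that left out no single library, DESeq2 among them, called 6 to 266 of all genes.

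Levels in control cells, the 4 mock and siNT1 libraries of each line, were set side by side per kilobase of the MANE Select transcript, with library sizes scaled over the 8 control libraries. In PC3 the highest members were BCL2L1 at 92.7 ± 12.6 CPM per kb (SD, n = 4), MCL1 at 82.5 ± 6.89 and BAD at 56.3 ± 6.01. In HeyA8 they were MCL1 at 168 ± 19.4 CPM per kb, CYCS at 77.5 ± 2.28 and BCL2L1 at 63.7 ± 5.96. BCL2L1 and MCL1 overlapped in PC3, as did BAD and CYCS (55.5 ± 12.1), whereas in HeyA8 all 4 values of MCL1 were above all of CYCS, and those above all of BCL2L1. Among the members tested between the lines, the lowest were TNFSF10 (0.296 ± 0.0633), BCL2 (0.320 ± 0.0703) and CASP10 (0.445 ± 0.0639) in PC3. In HeyA8 they were TNFSF10 (0.0199 ± 0.0278), CASP10 (0.0790 ± 0.0317) and BMF (0.1 ± 0.0886). RIPK3 had no reads, and HRK was too rare for the test between the lines.

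**Figure D4:**
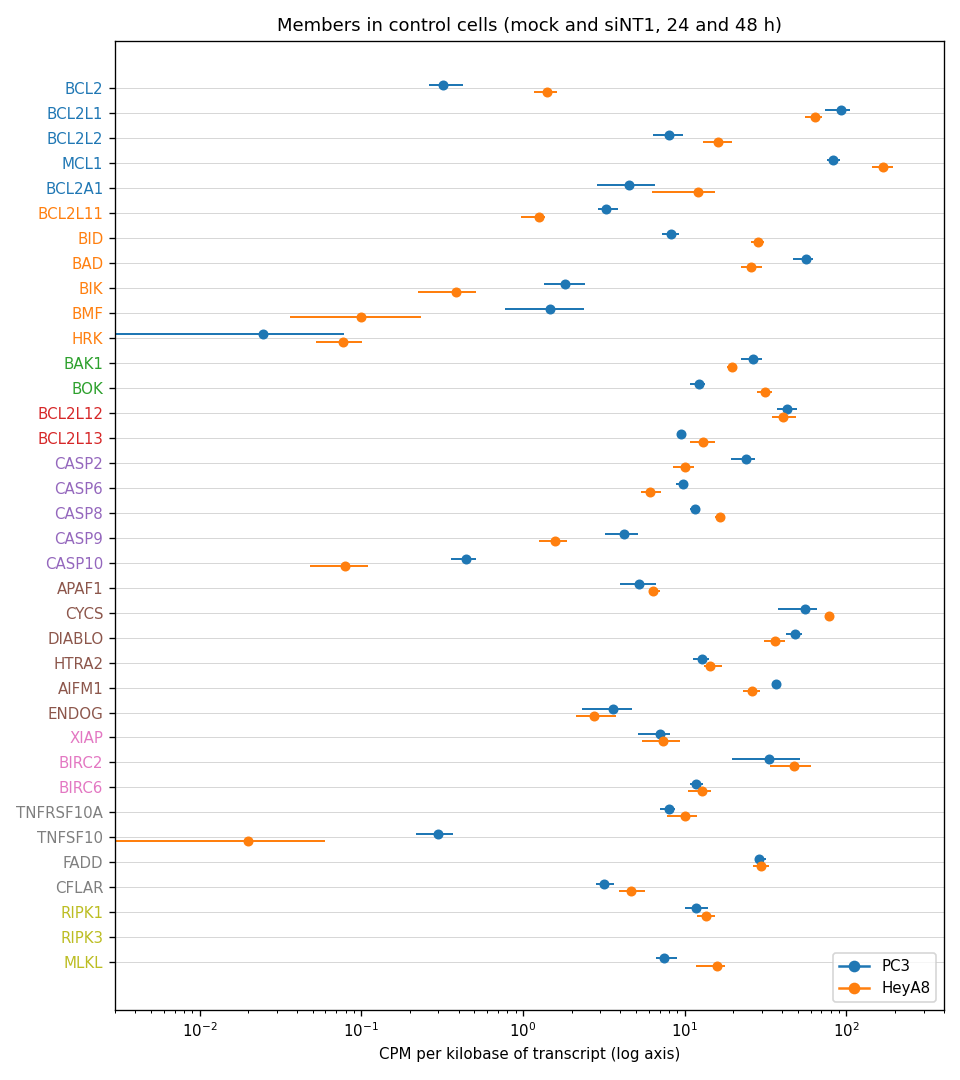
CPM per kilobase of MANE Select transcript (logarithmic axis) in the control cells of PC3 and HeyA8, with a point for the mean of 4 libraries and a line from the lowest to the highest. Lines that reach the left edge hold a library with 0 reads, RIPK3 has no point because it had no reads, and MCL1 in HeyA8 is the highest at 168 CPM per kb.

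Between the lines, 14 of 34 members were higher in HeyA8 and 13 lower, beside 79.9% of all genes called in either direction, so that 27 of 34 lies at the background. Of the 5 anti-apoptotic BCL2 genes 4 were higher in HeyA8 and 1 lower, while of 5 BH3-only genes tested 1 was higher and 4 lower, and of the 5 caspases 1 was higher and 4 lower. Of the 6 apoptosome and mitochondrial factors 2 were higher and 2 lower, of the 2 pore formers 1 and 1, and of the 4 genes of the death receptor pathway 2 and 1. Of the 3 IAP genes, the 2 other BCL2 homologues and the 2 necroptosis genes tested 1 each was higher and 0 lower. No test between the roles was made. In the anti-apoptotic group BCL2 was higher by 2.11 ± 0.19 on the log2 scale (adjusted p = 3.39e-06), with 1.83 to 2.89 CPM in the PC3 control libraries and 8.14 to 11.1 CPM in those of HeyA8. BCL2A1 (1.38 ± 0.30), MCL1 (1.00 ± 0.07) and BCL2L2 were higher too, and BCL2L1 was lower (-0.56 ± 0.08, adjusted p = 0.000104).

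Among BH3-only genes BMF had the widest gap (-3.92 ± 0.37, adjusted p = 4.79e-06), with 125 to 347 reads in the PC3 control libraries and 5 to 28 in those of HeyA8. BIK (-2.27 ± 0.27), BCL2L11 (-1.41 ± 0.14) and BAD (-1.16 ± 0.10) were lower in HeyA8, and BID was higher (1.78 ± 0.08, adjusted p = 1.86e-08). Of the pore formers, BOK was higher (1.34 ± 0.07) and BAK1 lower (-0.46 ± 0.09) in HeyA8, and BAX, which belongs to the list of other pathway genes and is named to complete the role, was higher (2.53 ± 0.09, adjusted p = 5.91e-09). CASP10 (-2.53 ± 0.27), CASP9 (-1.43 ± 0.13), CASP2 (-1.25 ± 0.09) and CASP6 were lower in HeyA8, and CASP8 was higher (0.51 ± 0.08). TNFSF10 had 13 to 23 reads in PC3 control libraries and 0 to 3 in HeyA8 (adjusted p = 0.000245), too few for a fold. MLKL was higher in HeyA8 (1.06 ± 0.12, adjusted p = 2.2e-05). RIPK1 (0.17 ± 0.08) did not pass.

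Of the 76 other pathway genes tested between the lines, 35 were higher in HeyA8 and 29 lower, beside 79.9% of all genes called in either direction. The widest gaps were in genes almost unread in one line, for which counts are given in place of a fold. TNFRSF10D, a decoy receptor for TRAIL, had 0 to 3 reads in PC3 control libraries and 5587 to 7803 in HeyA8. TNF had 0 reads in the 4 PC3 libraries and 17 to 61 in HeyA8. TNFRSF1B had 65 to 116 reads in PC3 and 0 or 1 in HeyA8, and PYCARD, the inflammasome adaptor, 28 to 66 in PC3 and 0 to 3 in HeyA8.

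With time in culture, BIRC2 was lower at 48 h than at 24 h in each of the 4 control pairs. In PC3 mock cells it was at 160 and 84.2 CPM, after siNT1 at 217 and 99.9 CPM, in HeyA8 mock cells at 197 and 117 CPM and after siNT1 at 206 and 136 CPM. After siGGGGGC in PC3 the values were 130 and 124 CPM, a gap far smaller than in the control pairs of PC3. After siGGGGGC in HeyA8 they were 232 and 166 CPM, a log2 difference of -0.48 beside -0.60 after siNT1 in that line. CASP9 and APAF1 were higher at 48 h in the 4 control pairs, by 0.25 and 0.28 on the log2 scale at the median, and MCL1 by 0.000626 to 0.281. BCL2A1, CFLAR and XIAP were lower at 48 h in them. MLKL was also lower at 48 h in these pairs, by 0.0068 to 0.478 on the log2 scale. These genes were picked out after their values were seen, and the values are descriptions, since each pair is 2 libraries.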

How the data were processed

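Total RNA was sequenced as paired-end libraries after ribosomal RNA depletion. Per the labels and the study's methods, the authors aligned reads to hg38 and counted them with HTSeq on Ensembl 78 genes, and the deposited values are raw read counts per gene. Whether the counting used strand is not given in the sources used here. Of the 36 gene spans, 17 overlap a gene on the other strand, 13 a gene on the same strand and 23 either. The labels give 1 nM siRNA, and the study's methods name another dose.

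Counts were fitted with edgeR 4.0.16 (R 4.3.3) by TMM scaling, the default filter on low counts and the quasi-likelihood test with terms for treatment and time, over the 8 libraries of a line. The comparison of lines used the 8 control libraries and the interactions all 16. Benjamini-Hochberg adjustment ran over all genes tested. DESeq2 1.42.0, other scalings, filters and library choices were alternatives. Log2 ratios between times used CPM + 0.5. The fitting was tested on counts simulated at a fixed spread and without a change over time. That test does not cover the wider spread of the siCAG pair in HeyA8.

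Named were all members called in a comparison, at most the 14 with the widest change, the 3 with the smallest p where fewer than 3 passed, and the 3 highest and lowest levels per length. Of the other pathway genes these were the 4 called with the widest change, or the 2 with the smallest p where 0 passed, except a gene that is not reported here. Genes outside this rule are said to be picked after their values were seen or complete a role or a count. The members and lists were chosen with earlier results of these data known. Replicate numbers follow time: the changes from 24 to 48 h of the groups of a line correlated across 10525 genes at -0.06 to 0.73 in PC3 and -0.07 to 0.53 in HeyA8.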

Additional observations from a re-analysis of the deposited data

Results flagged for a closer look

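BCL2A1 had differences of opposite sign in the 2 lines when siNT1 was compared with mock, in the libraries of both times. The log2 fold change was 0.75 in PC3 and -0.74 in HeyA8, a difference of -1.49 (HeyA8 minus PC3). At 24 and 48 h the log2 differences of CPM + 0.5 were 0.67 and 0.66 in PC3 and -0.30 and -1.10 in HeyA8. Neither fold change passed the adjusted threshold, and the difference between the lines was not tested.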

How the results depend on the processing

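The genes named by the rule kept their direction under the alternatives run. In HeyA8 cells given siCAG several members, among them BIRC2, XIAP and MCL1, differ in sign between the times, as the report gives. For siGGGGGC in PC3 (3 called) the count was 1 without the replicate block and 0 with only the 4 libraries compared. It was 1 without the siCAG libraries. For siCAG in PC3 (0 called) it was 3 with DESeq2, 1 without a filter and 5 with only the 4 libraries. It was 1 without the siGGGGGC libraries and 1 against mock. For siGGGGGC in HeyA8 (0 called) it was 2 with only the 4 libraries and 1 without the siCAG libraries. For siCAG in HeyA8 (5 called) it was 9 with DESeq2, 3 with the filter at 1 CPM, 1 with only the 4 libraries, 1 without the siGGGGGC libraries, and 0 to 14 with a library left out. Against mock the counts were again 3 and 5, but of other genes: in PC3 after siGGGGGC MCL1 was lost (adjusted p = 0.0547) and TNFSF10 gained, and in HeyA8 after siCAG CASP9 (adjusted p = 0.0586) and HRK (adjusted p = 0.106) were lost and BAK1 and CYCS gained. Without a filter BID was lost in PC3 after siGGGGGC. In HeyA8 after siCAG HRK was lost and CYCS gained. For siNT1 against mock in HeyA8 (0 called) it was 7 with only the 4 libraries. For the siCAG interaction (0 called) it was 3 with DESeq2. The cause was not tested. Over all genes, the alternatives other than leaving out a single library called 438 to 3200 for siGGGGGC in PC3 (1463 as reported), 165 to 2346 for siCAG in PC3 (182), 6 to 266 for siNT1 against mock in PC3 (35), 0 to 1180 for siGGGGGC in HeyA8 (0), 266 to 2665 for siCAG in HeyA8 (1083), 0 to 1574 for siNT1 against mock in HeyA8 (0), 0 to 46 for the siGGGGGC interaction (0) and 51 to 671 for the siCAG interaction (101). With a library left out the lone library of its group is assumed to vary like the other groups. In the comparisons of siRNA within a line, the replicate block changed the call only of the members named in the report. Of the other pathway genes named, it changed the calls of FAS, BNIP3 and TNFSF12 in PC3 after siGGGGGC, as the report gives. Groups hold 2 libraries, and a fit within a line has 3 residual degrees of freedom.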
